A study of Danio rerio with 16 samples.

Results

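The comparison described here set zebrafish primordial germ cells (PGCs) against somatic cells of the same age at 7 h post fertilisation (hpf), during gastrulation. It rests on 4 of the 16 RNA-seq libraries of the study, 2 of PGCs and 2 of soma, which were chosen by their stage and cell type alone. It was read across all genes, with equal weight on those lower in PGCs and those higher in them. Both kinds of cell were sorted by flow cytometry from embryos of the kop-EGFP-F-nos3'UTR line, which also carries cry-DsRed, and no treatment or further genotype is given for either group. In this line the kop promoter drives a farnesylated EGFP whose transcript ends in the nanos3 3'UTR, so the label of a cell as PGC rests on that reporter. The sort that gave the soma names no lineage, and the number of embryos behind a library is not given in the sources used here. The other 12 libraries, PGCs and soma at 4, 24 and 36 hpf, were used for the shared estimate of the spread and for the values of the same genes at other stages. Among them, soma replicate 1 of 24 hpf carries a source label that names PGCs, while its title and cell type name soma, and it was used as soma.

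Zebrafish PGCs are the cells that inherit germ plasm, a store of maternal RNA and protein laid down in the egg. Its RNA-binding proteins and helicases keep germline mRNAs stable and translated while the same mRNAs are cleared from somatic cells. During gastrulation PGCs migrate through the embryo, while the soma around them is patterned by Nodal, BMP, Wnt and FGF signals into ectoderm, mesoderm and endoderm, while the enveloping layer covers the embryo and the yolk syncytial layer lines the yolk.

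The PGC libraries held 4884816 and 3489143 expected counts (estimated counts per gene) and the soma libraries 7076558 and 5033782. Levels are given as CPM, counts scaled to a common library size after TMM normalisation and not per length, so levels are compared between groups and not between genes. Values per library are given in the order PGC replicate 1, PGC replicate 2, soma replicate 1 and soma replicate 2. Across the 10241 genes averaging 5 CPM or more, Pearson's r of log2 CPM was 0.909 between the PGC replicates and 0.916 between the soma replicates, against 0.788 to 0.815 between a PGC and a soma library, which is a description since genes are not independent replicates. The summed level of 20 germ plasm and germ cell genes was 6692 and 7979 CPM in PGCs and 1271 and 837 CPM in soma. The summed level of 36 markers of the enveloping layer, a somatic epithelium, was 20253 and 9899 CPM in PGCs and 1890 and 5294 CPM in soma, so both PGC libraries also held more of these somatic transcripts. Another 5 genes without a symbol were higher in replicate 2 than in replicate 1 of both groups, at 7 hpf and at each other stage, and none of them was called. Symbols are those paired with the identifiers in the reference table, where capitals mark the name of a vertebrate gene without the suffix of a zebrafish duplicate.

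The number of genes higher in PGCs was about 4 times the number lower. Of 20536 genes tested, 648 were called higher in PGCs (3.16% of the genes tested) and 167 were called lower (0.813%), where a call was an adjusted p under 0.05 in edgeR's quasi-likelihood test and a log2 fold change past 1.5. The higher genes had a median log2 fold change of 2.66, a 6.33-fold median difference, and were mostly scarce in soma, with a median of 23.4 CPM in PGCs and 3.60 CPM in soma. The lower genes had a median log2 fold change of -1.92, a 3.79-fold median difference, and were mostly well expressed in both, with a median of 25.8 CPM in PGCs and 97.3 CPM in soma. At most 3 counts in both soma libraries were found for 100 of the 648 higher genes, while at most 3 counts in both PGC libraries were found for 8 of the 167 lower genes, and 129 of the 167 were at 5 CPM or more in both PGC libraries. All 648 higher and all 167 lower genes were without overlap between the PGC and soma libraries. Lack of overlap in a called gene is therefore no added support. The shares of 3.16% and 0.813% are the background for the calls counted in each gene list below. Other shares given beside a list are also over all genes tested, whose median log2 fold change was 0.00. Over the 10241 genes averaging 5 CPM or more the median was -0.16, and shares over those genes alone were not counted. Lists made mostly of such genes therefore have no share of like genes beside them. In bulk libraries of sorted cells, fewer cells of a type and less RNA per cell cannot be told apart.

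These counts rested on few libraries. Without PGC replicate 1, PGC replicate 2, soma replicate 1 or soma replicate 2 in turn, 368, 182, 235 and 87 of the 648 higher genes were still called, and 38, 8, 41 and 14 of the 167 lower genes, although every called gene kept its direction. Without soma replicate 1 of 24 hpf, which enters through the shared spread, 508 of the 648 and 110 of the 167 were still called. The genes named in the text that lost their calls in that fit were si:ch211-286b5.2, alox5b.3, cgnb and dsc2l among the higher genes, and FZD8, MBD3, MCM5, PRDM14, RPL35A, TFAP2C, ZEB1, ZIC1, bmp7a, klf2a, BRCC3, nova1, hmga1a, hmgn1b, PPM1G, qkia, si:ch211-222l21.1 and ENSDARG00000076426 among the lower genes. Elsewhere in the text, a library left out is 1 of the 4 of 7 hpf. Scaling by library totals alone moved the genes' log2 fold changes up by a median of 0.42 and turned the split into 1170 higher and 56 lower, 95.4% higher against 79.5% with TMM, and 54 of the 167 lower genes were still called. Medians of gene lists that lie below 0 by a like amount can therefore depend on the scaling.

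**Figure D1:**
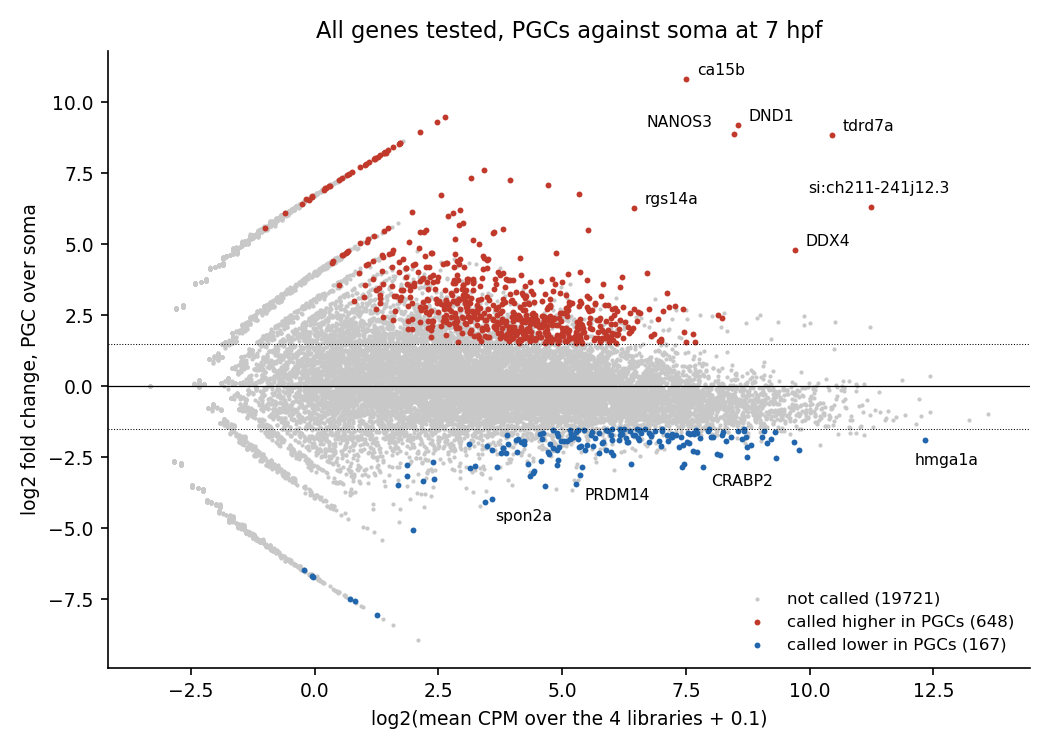
Each point is a gene tested, with the mean CPM over the 4 libraries of 7 hpf (log2 scale, 0.1 added) on the horizontal axis and the log2 fold change of PGC over soma on the vertical axis; dotted lines mark 1.5 and -1.5. The 648 genes called higher (red) reach far from 0 at both low and high levels, while the 167 called lower (blue) lie mostly within 4 of 0; the straight streaks at the left are genes with a few counts in a single group, whose fitted folds depend on the prior count.

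Germ plasm and germ cell genes gave the largest differences between the cell types. Of the 20 genes of this list, 11 were called higher, 1 was called lower and 8 were not called, with a median log2 fold change of 3.39 against 0.00 over all genes tested. The transcript of tdrd7a, a Tudor domain protein of germ granules, was at 2061, 3539, 7.41 and 4.59 CPM (log2 fold change 8.85 ± 0.87, SE, n = 2 libraries a group; adjusted p = 0.000261). DND1, an RNA-binding protein that shields germline mRNAs from microRNAs, was at 668, 841, 0.483 and 2.19 CPM (9.21 ± 0.83, adjusted p = 0.000147). In both genes every PGC library lay far above every soma library.

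NANOS3, a translational regulator that zebrafish PGCs need to survive, was at 711, 711, 1.61 and 1.31 CPM (log2 fold change 8.90 ± 0.64, adjusted p = 2.27e-05). Its PGC replicates were nearly equal, but the reporter carries the 3'UTR of this gene, and reads from the reporter and from the gene cannot be told apart in the table. DDX4, the Vasa RNA helicase of germ granules, was at 1485, 1736, 87.3 and 28.2 CPM (4.80 ± 0.61, adjusted p = 0.00205). Its soma libraries held more than a trace of it, and still lay far below both PGC libraries. The carbonic anhydrase gene ca15b was at 484, 245, 0.322 and 0 CPM, which is at least 373-fold higher in PGCs, setting the PGC library with less of it against 3 counts in the shallower soma library (adjusted p = 0.000261). DAZL, an RNA-binding protein of germ cells, was at 115, 45.3, 1.29 and 0 CPM (6.79 ± 0.96, adjusted p = 0.00297), with PGC replicate 1 above PGC replicate 2.

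The same direction was called for 5 further members. They were gra, a germ plasm transcript at 56.3, 124, 2.58 and 1.31 CPM (log2 fold change 5.49), and rgs14a, a regulator of G protein signalling at 251, 95.8, 1.13 and 3.5 CPM (6.27). Both duplicates of the microtubule adaptor hook2 were called, hook2 itself (ENSDARG00000039309) at 32.9, 7.05, 2.09 and 0 CPM (4.13) and HOOK2 (ENSDARG00000099235) at 225, 77.3, 31.2 and 14 CPM (2.74). For hook2, rgs14a and HOOK2, PGC replicate 1 was above PGC replicate 2, as for ca15b and DAZL and in the enveloping layer sum. The order of the soma libraries was that of the sum for rgs14a and the reverse for hook2 and HOOK2. ADAD1, an RNA-binding protein of germ cells, was low but even at 9.64, 9.39, 0.805 and 0.656 CPM (3.66).

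Not every germ plasm transcript stood out. The mRNA of buc, the Bucky ball protein that organises germ plasm in the oocyte, was at 23.5, 20, 7.25 and 6.12 CPM (log2 fold change 1.70, adjusted p = 0.255), and TDRD6, a Tudor protein that binds Bucky ball, was at 55.2, 112, 45.6 and 30 CPM (1.14, adjusted p = 0.186). Neither passed the test, although their groups did not overlap. IGF2BP3, an RNA-binding protein that stabilises maternal mRNAs, was the member called lower, at 167, 144, 605 and 454 CPM (-1.77 ± 0.40, adjusted p = 0.0263). Of the 11 higher members, 8, 10, 10 and 7 were still called without PGC replicate 1, PGC replicate 2, soma replicate 1 and soma replicate 2, and 11 with library totals alone. The call of IGF2BP3 was lost in each of these settings.

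**Figure D2:**
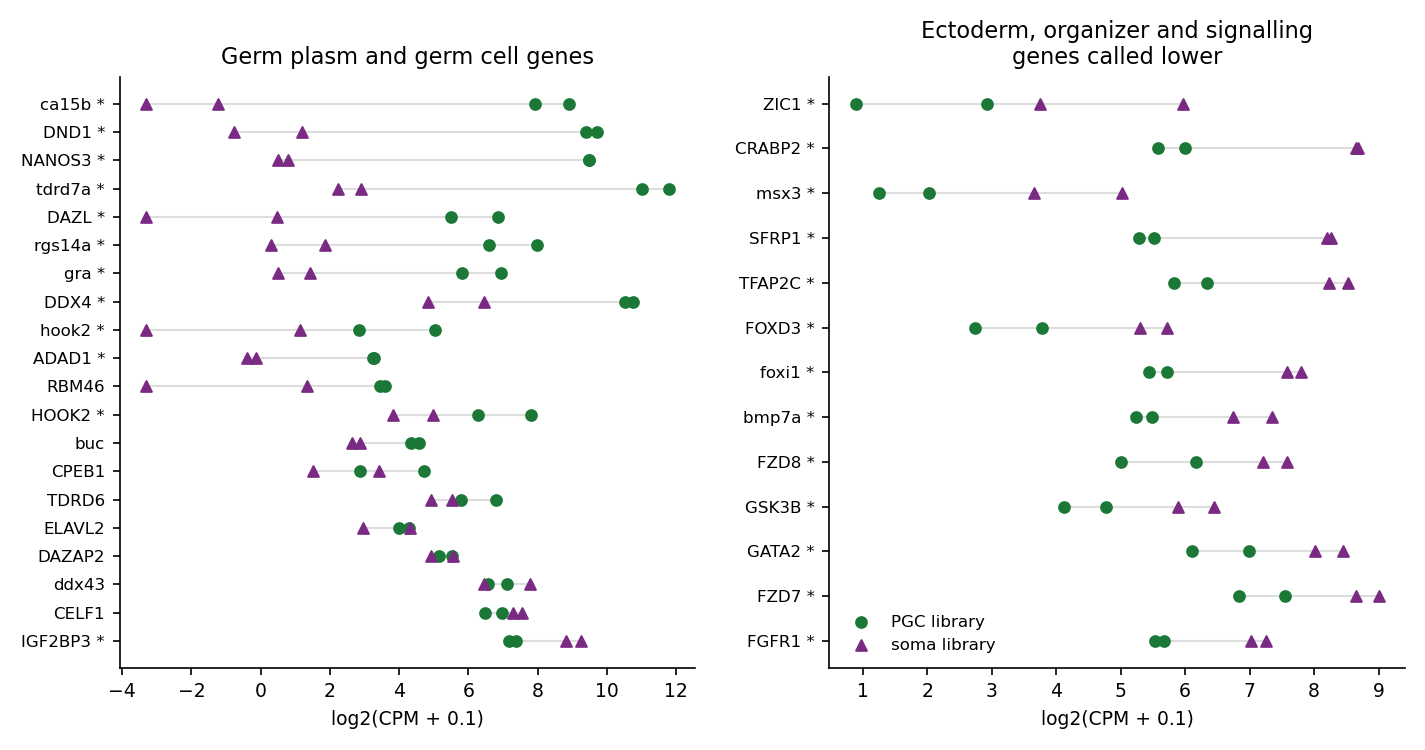
Level of each gene in each library, as log2(CPM + 0.1), with circles for the PGC libraries and triangles for the soma libraries; an asterisk marks a gene called at 7 hpf. At the left, the germ plasm and germ cell genes run from ca15b, with every soma library near 0 CPM, to IGF2BP3, where soma is higher. At the right, the 13 ectoderm, organizer and signalling genes called lower show soma above PGCs, as every gene called lower does.

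Genes of the piRNA pathway, which silences transposons in germ cells through small RNAs, were higher where they were called. Of 13 tested, 4 were called higher and 0 lower, and 7 had an unadjusted p under 0.05, all 7 higher, where 12.9% of all genes were higher and 9.68% lower at that p, 22.6% in all. The median log2 fold change was 2.31, or 0.91 with genes at 3 counts or fewer set to their bound, since these few genes are unevenly spaced. ASZ1, a germ granule scaffold, was at 8.76, 38.5, 0.805 and 0.219 CPM (5.40), TDRD1 at 30, 46.3, 3.54 and 4.37 CPM (3.27) and rnf17, another Tudor protein, at 31, 39.5, 8.21 and 5.91 CPM (2.31), and DDX4 was the remaining call. The Piwi protein gene PIWIL2 was at 19.6, 27, 20.6 and 3.94 CPM (0.91, adjusted p = 0.423) and the helicase gene TDRD9 at 52.9, 30.5, 72.1 and 42.7 CPM (-0.46, adjusted p = 0.653), and in both the groups overlapped. Leaving out each library in turn left 3, 1, 1 and 1 of the 4 calls.

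Meiosis and oocyte genes gave 1 call each at this stage, both higher, where 3.16% of all genes were called higher. At an unadjusted p under 0.05 were 3 of 11 meiosis and 4 of 17 oocyte genes, all higher (12.9% of all genes). In these lists 3 of 11 and 9 of 17 averaged 5 CPM or more. Of 11 meiosis genes tested, 1 was called, SYCP1, which encodes a filament of the synaptonemal complex, at 5.61, 29.8, 0.161 and 0.875 CPM (log2 fold change 5.14, adjusted p = 0.0144), and the list's median was 0.00. Of 17 oocyte and egg genes, 1 was called, WEE2, a kinase that holds the oocyte in meiotic arrest, at 61, 93.2, 7.09 and 2.19 CPM (4.02, adjusted p = 0.0345), and the median was 0.90, or 0.26 with genes at the floor set to their bound. Of 67 cell cycle genes tested, 1 was called higher and 1 lower (3.16% and 0.813% of all genes), with a median of -0.56. The higher was WEE2, and the lower was MCM5, a subunit of the replicative helicase, at 105, 102, 360 and 282 CPM (-1.63, adjusted p = 0.0413). Without overlap 36 of the 67 lay below soma and 9 above it (23.4% and 23.3% of all genes). The 60 cell cycle genes averaging 5 CPM or more had a median of -0.62, against -0.16 over all such genes. At an unadjusted p under 0.05, 18 were lower and 5 higher (9.68% and 12.9% of all genes). Neither WEE2 nor MCM5 was called in any fit that left out a library, and SYCP1 was called in 1 of them, without PGC replicate 1.

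Outside the germ cell lists, the 20 genes with the highest log2 fold changes held mainly genes at 10 to 60 CPM in PGCs and close to 0 in soma. This set was taken among called genes that averaged 5 CPM or more and did not overlap between the groups (background for no overlap above, 23.3% of genes). Ranking by fold change selects genes scarce in soma, and such genes pass the mean only through PGCs. Their levels therefore follow from the rule and are a description of it. TGFA, a ligand of the epidermal growth factor receptor, was at 43.5, 60.6, 0.483 and 0.219 CPM, which is at least 66.2-fold higher. The actin-binding protein gene afap1l1a was at 28.4, 32.6, 0.322 and 0 CPM, at least 43.3-fold higher. SMCR8, a subunit of an autophagy complex, was at least 21.6-fold higher. For 42sp43, which in Xenopus encodes a protein of an RNA storage particle of oocytes, the difference was at least 20.3-fold. These bounds compare the lower PGC library with 3 counts, and take no account of counting error or replicate spread.

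The gene si:ch211-241j12.3, which has no assigned name, had the highest mean CPM of all genes called higher, at 5128, 4415, 60.9 and 60.4 CPM (log2 fold change 6.30 ± 0.56, adjusted p = 0.000147). Its replicates were nearly equal in both groups. Others of the 20 were zgc:158403 (at least 20.4-fold), si:rp71-45k5.2 (at least 18.2-fold), sh3d21 (at least 16.5-fold), si:dkey-24p1.6 (at least 14.4-fold), si:ch211-286b5.2 (at least 10.1-fold), si:dkey-159n16.4 (at least 4.01-fold), and ENSDARG00000010940, which was at 38.6 and 15.7 CPM in PGCs (at least 24.0-fold). Without PGC replicate 1, PGC replicate 2, soma replicate 1 or soma replicate 2, 16, 14, 14 and 11 of the 20 were still called.

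Another 4 called genes with roles in the circadian clock were named after their values were seen, and other genes of the clock were not counted. CRY1, a cryptochrome that represses the loop, was at 11.7, 30.8, 0.161 and 0 CPM and at least 17.9-fold higher. PER2, its partner repressor, was at 52.7, 60.1, 7.73 and 3.72 CPM (log2 fold change 3.28, adjusted p = 0.00411), and ciarta, another repressor, at 18.6, 23.7, 0.644 and 1.31 CPM (4.45, adjusted p = 0.00144). BMAL1, the activator, was at 20.5, 34.3, 5.8 and 3.06 CPM (2.61, adjusted p = 0.00781). In all 4 genes both soma libraries were below both PGC libraries, as in every gene called higher. The calls numbered 4, 3, 4 and 2 without PGC replicate 1, PGC replicate 2, soma replicate 1 and soma replicate 2.

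EOMES, a T-box factor stored in the egg that acts upstream of Nodal and endoderm genes, was also higher, at 33.6, 55, 2.42 and 4.37 CPM (log2 fold change 3.72, adjusted p = 0.0116), and was named after its value was seen. So were TSC1, a brake on mTOR signalling, at 91.7, 184, 13.7 and 5.03 CPM (3.86, adjusted p = 0.00211), PDCD4, an inhibitor of translation, at 83.4, 180, 9.82 and 13.3 CPM (3.51, adjusted p = 0.00215), and SESN1, a sestrin that restrains mTOR signalling, at 48, 150, 9.5 and 12 CPM (3.20, adjusted p = 0.0132). In these 4 genes PGC replicate 2 was the highest library. TSC1 and PDCD4 were called whichever library was left out, whereas EOMES and SESN1 kept their calls only without PGC replicate 1.

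Among the 10 called genes with the highest mean level in the higher direction, 5 were germ cell genes already given and 1 was si:ch211-241j12.3. The other 4 were HSP90AA1, a chaperone, at 321, 693, 51 and 142 CPM (log2 fold change 2.39, adjusted p = 0.0336), TRIP11, a Golgi golgin, at 292, 322, 92.3 and 117 CPM (1.55, adjusted p = 0.0119), LCP1, the actin bundler L-plastin, at 658, 313, 38.8 and 130 CPM (2.53, adjusted p = 0.0374), and the lipoxygenase gene alox5b.3 at 449, 171, 83.3 and 91.9 CPM (1.83, adjusted p = 0.0396). LCP1 and alox5b.3 were highest in PGC replicate 1 and lowest in soma replicate 1, the order of the summed enveloping layer markers. The calls kept among the 10 were 8, 7, 6 and 6 when each library was left out in turn.

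Enveloping layer markers, which are keratins, junction proteins and epithelial regulators of the outer sheet of the embryo, lay above soma as a group without a call in the reported fit. Of 36 tested, 27 were above soma in both PGC libraries and 9 overlapped, where 23.3% of all genes did not overlap in that direction. The median log2 fold change was 2.24 against 0.00 over all genes, or 2.03 with genes at the floor set to their bound. The keratin krt8 was at 5469, 2294, 399 and 1443 CPM (2.08, adjusted p = 0.0709), krt4 at 3179, 1653, 232 and 766 CPM (2.28, adjusted p = 0.115) and PPL, the cornified envelope protein periplakin, at 2095, 1011, 155 and 540 CPM (2.16, adjusted p = 0.108). In all 3 of them PGC replicate 1 was highest and soma replicate 1 lowest, so both groups were uneven. The claudin gene cldne was at 433, 195, 20.8 and 78.1 CPM (2.67, adjusted p = 0.101), and grhl3, a transcription factor of surface epithelia, at 136, 53.6, 8.53 and 20.1 CPM (2.74, adjusted p = 0.0644).

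In the reported fit edgeR's quasi-likelihood test called 0 of the 36. Of these, 18 had an unadjusted p under 0.05, all in the higher direction (12.9% of all genes). DESeq2 called 15 higher (6.46% of all genes). The same edgeR test called 21 higher with no filter on low counts and 14 with library totals alone. It called 8 of 28 tested with the stricter filter and 4 of 29 with only the 7 hpf libraries. It called 0 with upper-quartile scaling, the replicate block or offsets from the effective lengths. The likelihood ratio test called 13 and the exact test 17. The defining markers cldni, icn, icn2 and krt1-19d were at 0 in both soma libraries, and cldni and krt18b at 0 in both PGC libraries. At 4 hpf the same list summed to 1707 and 1319 CPM in PGCs and to 1250 and 1326 CPM in soma. The list's median was 1.60 without PGC replicate 1, 2.49 without PGC replicate 2, 1.59 without soma replicate 1 and 3.39 without soma replicate 2.

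**Figure D3:**
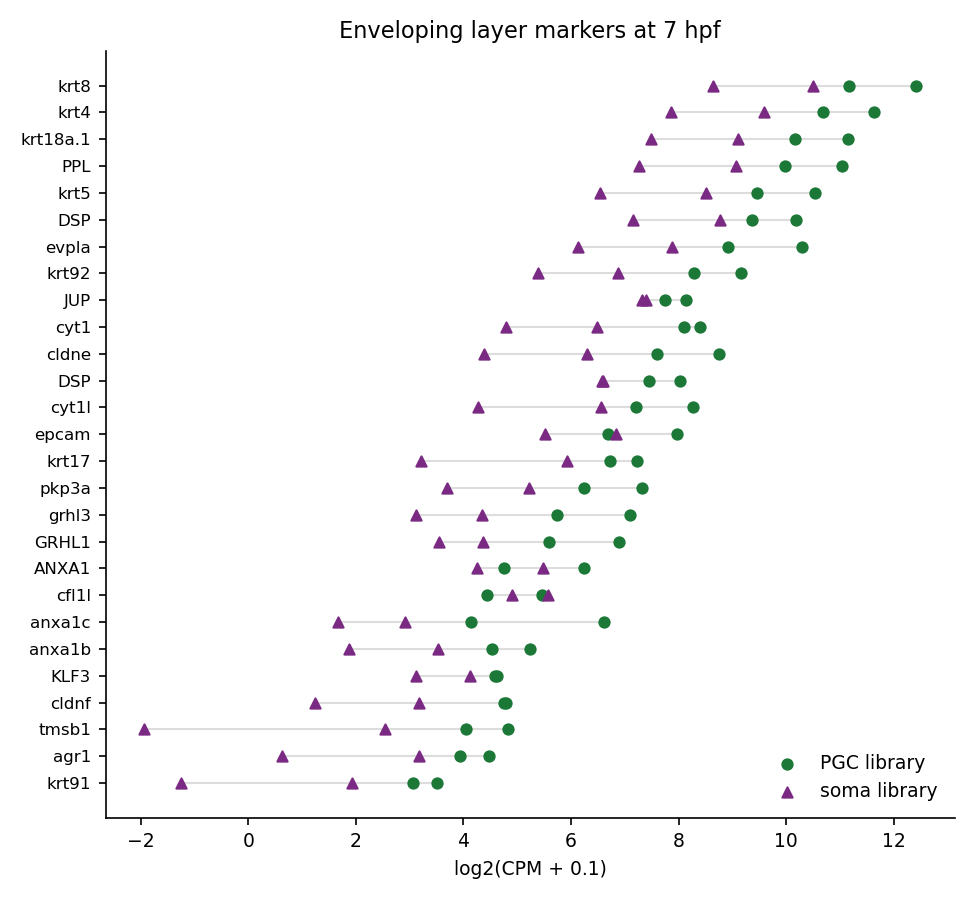
Level of the 27 enveloping layer markers averaging 5 CPM or more, in each library, as log2(CPM + 0.1), with circles for PGCs and triangles for soma. For nearly all, both PGC circles lie to the right of both soma triangles, and the pair of triangles is spread as widely as in krt8, at 399 and 1443 CPM.

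Some epithelial genes outside that list were called higher, again with PGC replicate 1 the highest library. They were named after their values were seen. The tight junction protein gene tjp3 was at 270, 186, 37.7 and 34.8 CPM (log2 fold change 2.65, adjusted p = 0.0164), cgnb, a cingulin, at 193, 86.4, 19.5 and 47.5 CPM (2.07, adjusted p = 0.0413), and dsc2l, a desmocollin, at 226, 101, 10.9 and 43.7 CPM (2.59, adjusted p = 0.0491). CEBPB, a basic leucine zipper factor and 1 of the 2 genes called among 47 immediate early and stress genes, was at 105, 56.6, 6.12 and 12 CPM (3.17, adjusted p = 0.0202). The summed enveloping layer markers, at 20253 and 9899 CPM in PGCs and 1890 and 5294 CPM in soma, had the library order of cgnb, dsc2l and CEBPB. For tjp3 the soma libraries were nearly equal. The part of enveloping layer cells in these calls was not tested. None of tjp3, cgnb and dsc2l was called without PGC replicate 1, soma replicate 1 or soma replicate 2, and 1 was called without PGC replicate 2, which was also the only left-out library with which CEBPB kept its call.

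Of 71 adhesion, junction and motility genes tested, 2 were called higher and 2 lower (3.16% and 0.813% of all genes), with a median of -0.49. Below 0 were 49 of the 71, and without overlap 29 lay below soma and 5 above it (23.4% and 23.3% of all genes). The 54 members averaging 5 CPM or more had a median of -0.66, against -0.16 over all such genes. The higher ones were ROCK2, a kinase that drives contraction and blebbing, at 227, 185, 31.6 and 47.2 CPM (log2 fold change 2.39, adjusted p = 0.0169), and EZR, which links actin to the membrane, at 64.3, 65.8, 18.7 and 8.09 CPM (2.27, adjusted p = 0.0132). The lower ones were PCDH19, a protocadherin of the neural plate, at 30.3, 61.8, 174 and 441 CPM (-2.74, adjusted p = 0.0251), and ZEB1, a repressor of epithelial genes, at 15.1, 10.8, 30.8 and 69.3 CPM (-1.94, adjusted p = 0.045). The 4 genes, like every called gene, did not overlap between the groups. Left-out libraries kept 1, 0, 1 and 0 of the higher pair and 0, 0, 2 and 0 of the lower pair.

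Several regulators of RNA polymerase II were higher, within a list whose median was on the other side of 0. Of 41 transcription initiation and elongation genes, 6 were called higher and 0 lower (3.16% and 0.813% of all genes), with a median of -0.47. Without overlap 25 of the 41 lay below soma and 8 above it (23.4% and 23.3% of all genes). The 40 members averaging 5 CPM or more had a median of -0.48, against -0.16 over all such genes. At an unadjusted p under 0.05, 11 were lower and 8 higher (9.68% and 12.9% of all genes). GTF2A1, a subunit of TFIIA, was at 238, 322, 87.3 and 61 CPM (log2 fold change 1.92 ± 0.31, adjusted p = 0.00643), ELL2, an elongation factor, at 232, 149, 57.8 and 68.2 CPM (1.60, adjusted p = 0.0216), and TBP, the TATA-binding protein, at 74.3, 93, 31.9 and 22.1 CPM (1.63, adjusted p = 0.027). LARP7, which binds the 7SK RNA that restrains elongation, had a log2 fold change of 1.63, taf4a, a subunit of TFIID, 1.87, and the bromodomain gene brd2b 1.98. In each of these 6 genes both PGC libraries were above both soma libraries, as in every gene called higher. Left-out libraries kept 3, 2, 3 and 0 of the 6 calls.

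Among 63 RNA decay and deadenylation genes, 3 were called higher and 1, IGF2BP3, lower (3.16% and 0.813% of all genes), with a median of -0.40. Without overlap 35 of the 63 lay below soma and 15 above it (23.4% and 23.3% of all genes). The 60 members averaging 5 CPM or more had a median of -0.44, against -0.16 over all such genes. At an unadjusted p under 0.05, 17 were lower and 9 higher (9.68% and 12.9% of all genes). CNOT4, a ubiquitin ligase of the deadenylase complex, was at 86.4, 139, 27.2 and 28.9 CPM (log2 fold change 2.01, adjusted p = 0.00619), AGO3, an Argonaute, at 23.5, 32.2, 5.31 and 4.16 CPM (2.54, adjusted p = 0.00773), and patl2, an oocyte RNA-binding repressor, at 16.6, 19.7, 3.38 and 2.62 CPM (2.58, adjusted p = 0.0147). Without soma replicate 2 none of the 3 was called.

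Of 45 histone modifier and Polycomb genes, 3 were called higher and 1 lower (3.16% and 0.813% of all genes), with a median of -0.31. Without overlap 20 of the 45 lay below soma and 10 above it (23.4% and 23.3% of all genes). The 38 members averaging 5 CPM or more had a median of -0.38, against -0.16 over all such genes. Both duplicates of BMI1, a subunit of Polycomb repressive complex 1, were called higher, ENSDARG00000006010 at 20.7, 28.9, 2.74 and 3.06 CPM (log2 fold change 3.09, adjusted p = 0.00619) and ENSDARG00000013076 at 9.46, 30.5, 1.13 and 0.437 CPM (4.59, adjusted p = 0.00944). Without soma replicate 2 none of the 3 was called.

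The member called lower was PRDM14, a zinc finger protein that in the mouse is needed for PGC specification. In zebrafish PGCs it was at 7.71 and 5.4 CPM, against 85.8 and 56 CPM in soma (log2 fold change -3.43 ± 0.85, adjusted p = 0.0361). The soma libraries were about 10 times the PGC libraries, with no overlap, and the call was lost when any library was left out but kept with library totals alone. At 4 hpf its log2 fold change was -0.18 and was not called. Of 24 DNA methylation and demethylation genes, 1 was called, MBD3, a subunit of the NuRD repressor complex, at 61.7, 44.2, 173 and 128 CPM (-1.51, adjusted p = 0.0395), a call that was lost when any library was left out. MBD3 was also not called by DESeq2 or with library totals alone, and 0.813% of all genes were called lower. UHRF1, the partner of the maintenance methyltransferase, was at 411, 276, 1104 and 935 CPM (-1.57, adjusted p = 0.0583), which did not pass the test. The methylation list had a median of 0.35 over all 24 members, or 0.00 with genes at the floor set to their bound. Over the 10 members averaging 5 CPM or more the median was -0.51, against -0.16 over all such genes. The list's summed level was 1505 and 1448 CPM in PGCs and 3073 and 3051 CPM in soma. Without overlap 7 of its members lay above soma and 7 below it. At an unadjusted p under 0.05, 4 were higher and 4 lower.

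Transcription factors of the ectoderm were among the genes lower in PGCs. Of 54 neural ectoderm genes tested, 2 were called lower and 0 higher, and 25 had an unadjusted p under 0.05, all 25 lower (9.68% of all genes), with 29 below soma in both PGC libraries against a background of 23.4%. The list's median was the lowest of the 33 lists, -1.76, but was -1.16 with genes at the floor set to their bound, against -1.17 for ribosomal protein genes either way. Its summed level was 1150 and 784 CPM in PGCs and 3432 and 3322 CPM in soma. ZIC1, a zinc finger factor of the neural plate, was at 1.75, 7.52, 13.4 and 62.6 CPM (log2 fold change -3.06 ± 0.82, adjusted p = 0.0471). FOXD3, a factor of the dorsal organizer and the neural crest, was at 13.7, 6.58, 52.8 and 39.4 CPM (-2.18 ± 0.43, adjusted p = 0.0151). ZIC1 was at 13.4 CPM in soma replicate 1 and 62.6 CPM in soma replicate 2, and neither gene was called without soma replicate 2.

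Members of the neural list that missed the threshold lay nearby. SOX2, the SoxB1 factor of neural progenitors, was at 6.48, 8.22, 97.7 and 46.2 CPM (log2 fold change -3.29, adjusted p = 0.0665), OTX2, a factor of forebrain and midbrain, at 1.23, 12.9, 45.9 and 89.7 CPM (-3.29, adjusted p = 0.101), and SOX3 at 50.3, 30.3, 221 and 178 CPM (-2.30, adjusted p = 0.0533). The same held for sox19a at 68, 68.8, 390 and 282 CPM (-2.30, adjusted p = 0.0624) and for ZIC2 (ENSDARG00000037178) at 292, 142, 1000.3 and 646 CPM (-1.92, adjusted p = 0.088). DESeq2 called 20 of the 54 lower, and 2.09% of all genes.

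Non-neural ectoderm and epidermis genes followed with 4 of 31 called lower and 0 called higher (0.813% and 3.16% of all genes). The median was -0.34, 0.00 with genes at the floor set to their bound, and -1.56 over the 17 members at a mean of at least 5 CPM. Without overlap 12 lay below soma and 6 above it (23.4% and 23.3% of all genes). At an unadjusted p under 0.05, 9 were lower and 3 higher, and DESeq2 called 9 lower and 2 higher. TFAP2C, an AP-2 factor of the epidermis and neural plate border, was at 57, 81.3, 367 and 300 CPM (log2 fold change -2.27 ± 0.57, adjusted p = 0.0372). The forkhead gene foxi1, of the otic placode and epidermal ionocytes, was at 43.3, 52.4, 190 and 223 CPM (-2.11 ± 0.46, adjusted p = 0.0217), and GATA2, of the ventral ectoderm and later blood, at 68.5, 128, 350 and 257 CPM (-1.63 ± 0.37, adjusted p = 0.0262). The homeobox gene msx3, of the neural plate border, was at 2.28, 3.99, 12.6 and 32.4 CPM (-2.85 ± 0.55, adjusted p = 0.0138). In TFAP2C, foxi1 and GATA2 the replicates within a group were closer than the groups, while the soma replicates of msx3 were uneven. DLX3 at 8.76, 21.4, 60.4 and 172 CPM (-2.95, adjusted p = 0.0742) and TP63, the epidermal p53 relative, at 5.43, 13.9, 36.6 and 56 CPM (-2.27, adjusted p = 0.0846) did not pass. The same list holds keratins shared with the enveloping layer, and its summed level was 4916 and 2917 CPM in PGCs and 2810 and 3135 CPM in soma.

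Genes of 4 signalling lists were called lower and none higher, where 0.813% of all genes were called lower. The FGF and retinoic acid lists had 1 call each, and GATA2, 1 of the 2 BMP calls, was also counted under ectoderm. Without overlap, 19 of 33 Wnt, 20 of 31 BMP, 10 of 30 FGF and 9 of 23 retinoic acid genes lay below soma (23.4% of all genes). Above soma lay 2, 2, 2 and 3 of them (23.3% of all genes). In the Wnt list 4 of 33 were lower, with a median of -0.74. SFRP1, a secreted Wnt antagonist, was at 38.7, 45.6, 293 and 308 CPM (log2 fold change -2.83 ± 0.60, adjusted p = 0.0196), with close replicates in both groups. The Wnt receptors FZD8, at 71.5, 32.2, 191 and 148 CPM (-1.71, adjusted p = 0.0472), and FZD7 (ENSDARG00000027589), at 187, 114, 404 and 512 CPM (-1.60, adjusted p = 0.0236), were called too. So was GSK3B, a kinase of the destruction complex, at 27.2, 17.4, 58.9 and 86.8 CPM (-1.71, adjusted p = 0.027).

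Of 31 genes of the BMP list, 2 were called lower, GATA2 and the ligand gene bmp7a at 44.7, 37.8, 163 and 107 CPM (log2 fold change -1.71, adjusted p = 0.0414), with a median of -0.66. Of 30 FGF genes, the receptor FGFR1 was called lower at 51, 46.3, 152 and 129 CPM (-1.53, adjusted p = 0.0194), with a median of -0.38 that was -0.01 with library totals alone. Of 23 retinoic acid genes, CRABP2, a retinoic acid binding protein, was called lower at 64, 47.7, 410 and 402 CPM (-2.86 ± 0.67, adjusted p = 0.0281), with a median of -0.82. Of 27 dorsal organizer genes, 2 were called lower, FOXD3 and FZD8, with a median of -1.06. Over the 13 ectoderm, organizer and signalling genes called lower, 3, 1, 4 and 0 were still called without PGC replicate 1, PGC replicate 2, soma replicate 1 and soma replicate 2, and 6 with library totals alone, while all 13 kept their direction.

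The 20 genes with the lowest log2 fold changes, taken by the same rule as the highest, also held genes of these tissues. The lowest was spon2a, a secreted spondin, at 1.4, 0.939, 15.1 and 25.6 CPM (log2 fold change -4.08 ± 0.85, adjusted p = 0.0179). PAK6, a kinase of the p21-activated family, was at 3.68, 4.46, 38.3 and 35.2 CPM (-3.17, adjusted p = 0.0331), and LRP2, the endocytic receptor megalin, at 4.56, 4.93, 14 and 62.3 CPM (adjusted p = 0.0143), where soma replicate 2 was far above soma replicate 1. TUBA1A, an alpha-tubulin, was at 8.24, 8.69, 53.8 and 93.8 CPM (-3.12, adjusted p = 0.0358).

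The zinc finger gene znfl1g was at 1.23, 1.64, 22.7 and 22.1 CPM (log2 fold change -3.96, adjusted p = 0.0291), with very close soma replicates. Genes with neural roles in other vertebrates in this set were nova1, a splicing regulator of neurons, at 7.01, 13.9, 79.7 and 68 CPM (-2.83, adjusted p = 0.045), and AUTS2 at 3.5, 12, 42.8 and 61 CPM (-2.76, adjusted p = 0.0295). The others were BRCC3 (-3.25), the mitochondrial ribosomal protein gene MRPL4 (-2.87), PKDCC (-2.73), MN1 (-2.73), ASL (-2.65), and 2 genes without a symbol, ENSDARG00000076426 (-3.49) and ENSDARG00000093865 (-2.82). Of these 20 lowest genes, 1, 2, 8 and 0 were still called without each library in turn, fewer than of the 20 highest in every case, and 16 with library totals alone.

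The chromatin protein genes hmga1a and hmgn1b were among the 10 most abundant genes called lower. The AT-hook protein gene hmga1a had the highest mean CPM in soma of all called genes, without allowance for length, at 2777, 1642, 7673 and 8640 CPM (log2 fold change -1.88 ± 0.48, adjusted p = 0.0399). The nucleosome-binding protein genes hmgn1b, at 311, 207, 844 and 1035 CPM (-1.86, adjusted p = 0.0377), and hmgn6, named after its value was seen, at 30.1, 24, 89 and 113 CPM (-1.90, adjusted p = 0.0262), differed by a like amount, and hmgn6 was called in no fit that left out a library. All 3 were about 3 to 4 times as high in soma. The unnamed genes si:ch211-222l21.1, at 353, 264, 1284 and 1619 CPM (-2.23), si:ch211-152c2.3, at 212, 165, 1186 and 980 CPM (-2.52), and ENSDARG00000108537, at 192, 152, 697 and 762 CPM (-2.08), were in the same abundant set.

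Others of the 10 most abundant lower genes were PPM1G, a nuclear phosphatase, at 431, 238, 1340 and 1268 CPM (log2 fold change -1.96), ATP2A2, the calcium pump of the endoplasmic reticulum, at 276, 195, 898 and 727 CPM (-1.79), ylpm1 at 370, 259, 891 and 1021 CPM (-1.60), and qkia, a Quaking RNA-binding protein, at 330, 206, 803 and 811 CPM (-1.59). Both soma libraries of each were above both PGC libraries, as in every gene called lower. Left-out libraries kept 1, 0, 2 and 2 of the 10, and library totals alone kept 5. MYCN, a growth regulator, at 77.3, 73.3, 221 and 366 CPM (-1.96, adjusted p = 0.0364), LIN28A, the blocker of let-7 maturation, at 64.3, 71.4, 204 and 182 CPM (-1.51, adjusted p = 0.0229), and GLI2, an effector of Hedgehog signals, at 24.4, 22.1, 67 and 112 CPM (-1.95, adjusted p = 0.0272), were called lower too and were named after their values were seen. With a library left out, MYCN and LIN28A lost their calls in every case and GLI2 kept its call only without soma replicate 1. The called genes si:dkey-188c14.4 and si:ch211-139k8.4 had the same count in every library of 7 hpf, so reads may be shared between near-identical copies and both are uncertain.

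Ribosomal protein genes were lower almost without exception in level, while few passed the threshold. Of 83 tested, 82 were below soma in both PGC libraries (background 23.4%), 74 had an unadjusted p under 0.05, all lower (9.68% of all genes), and 3 were called, with a median log2 fold change of -1.17 that ranged from -1.32 to -0.75 over all alternatives. The calls were RPL35A at 63.1, 42.3, 139 and 188 CPM (-1.63, adjusted p = 0.0358), RPL31 at 36.3, 37.1, 104 and 108 CPM (-1.54, adjusted p = 0.0238), and RPL35 at 44.9, 34.5, 133 and 92.3 CPM (adjusted p = 0.0291), and none was called when any library was left out. The summed level was 8876 and 7393 CPM in PGCs and 18075 and 18508 CPM in soma. Transcript length moved with the differences. Among genes at 5 CPM or more, the tenth with the shortest effective lengths (median 543 bases) had a median log2 fold change of -0.54, and the tenth with the longest (median 6045 bases) -0.06. The genes called higher had a median effective length of 2574 bases and those called lower 1991 bases, against 1776 bases over all genes tested, and the part of length in these differences was not tested.

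Lists of mesoderm, endoderm, Nodal and Notch genes gave no call in either direction. Over the 44 mesoderm genes the median was -0.88, or -0.67 with genes at the floor set to their bound, and edgeR called 0. At an unadjusted p under 0.05 were 4, all lower, a smaller share than the 22.6% of all genes, and DESeq2 called 1, also lower. Without overlap 12 of the 44 lay below soma and 0 above it (23.4% and 23.3% of all genes). The T-box genes tbxta at 330, 226, 515 and 272 CPM (log2 fold change -0.50, adjusted p = 0.738) and tbx16 at 584, 572, 592 and 334 CPM (0.32, adjusted p = 0.845) were abundant in PGC libraries as in soma, and their groups overlapped. For the organizer antagonist chrd the values were 465, 227, 609 and 708 CPM (-0.93, adjusted p = 0.258).

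Over 21 endoderm genes the median was -0.50, with 0 called by edgeR, 5 at an unadjusted p under 0.05 and 3 called by DESeq2. Over 21 Nodal pathway genes it was -0.30, and 0.10 with library totals alone, with 0 called by edgeR, 3 at an unadjusted p under 0.05 and 2 called by DESeq2. The homeobox gene mixl1, a Nodal target, was at 167, 76.8, 22.4 and 5.47 CPM (log2 fold change 3.11, adjusted p = 0.0717), and gdf3, the maternal ligand that pairs with Nodal, at 117, 100.1, 41.7 and 12.9 CPM (1.98, adjusted p = 0.0589). Both were above soma in each PGC library and missed the threshold. Over 31 Notch genes the median was -0.72, with 0 called by edgeR, 5 at an unadjusted p under 0.05 and 1 called by DESeq2, all lower. Without overlap 13 of the 31 lay below soma and 2 above it (23.4% and 23.3% of all genes).

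The early transcription factors that open the zygotic genome gave no call, with 8 of the 13 below 0 and 5 above it. The pluripotency factor pou5f3 was at 1006, 449, 2262 and 1616 CPM (log2 fold change -1.41, adjusted p = 0.0937), nanog at 147, 71.9, 84.5 and 35.4 CPM (0.87, adjusted p = 0.324) and sox19b at 85.2, 147, 69.1 and 61.2 CPM (0.83, adjusted p = 0.216). Of the 13 genes of this list edgeR called 0, with 5 at an unadjusted p under 0.05, 4 lower and 1 higher. DESeq2 called 3, all lower. The list's summed level was 2121 and 1432.5 CPM in PGCs and 4078 and 2924 CPM in soma. The symbol CXCR4, that of the chemokine receptor that guides PGC migration, is shared by 2 duplicates. It does not tell which of them is the guidance receptor. The duplicate ENSDARG00000041959 was at 44.5, 71.6, 53.1 and 23.2 CPM (0.60, adjusted p = 0.468). The duplicate ENSDARG00000057633 was at 21.7, 16.7, 77.1 and 40 CPM (-1.61, adjusted p = 0.0761). Of the 6 chemokine guidance genes edgeR called 0, with 2 at an unadjusted p under 0.05, both lower and both called by DESeq2.

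Other lists had no call or calls already given. The 28 apoptosis genes (median 0.35), 17 heart and muscle genes (0.00), 47 Hox genes (0.00, with 40 at the floor in a group) and 18 Pim-related kinase genes (-0.84, or 0.00 with bounds) had 0 called by edgeR. At an unadjusted p under 0.05 these lists had 6, 1, 6 and 4 genes, and DESeq2 called 0, 0, 4 and 0. Among 17 haematopoietic and endothelial genes only GATA2 was called, and the 6 calls among 21 maternal mRNA and miR-430 target genes (median 0.97) were the germ genes NANOS3, tdrd7a, DAZL, DND1, DDX4 and gra. The second call among the immediate early and stress genes was klf2a, a factor induced by flow in endothelium, lower at 4.91, 8.46, 28.2 and 53.6 CPM (log2 fold change -2.62, adjusted p = 0.0467), and not called when any library was left out. The heat shock gene hsp70.3 was at 108, 312, 32 and 17.1 CPM (3.09, adjusted p = 0.0697) and HSPB1 at 529, 391, 1792 and 2017 CPM (-2.05, adjusted p = 0.0712).

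Yolk syncytial layer markers, the other extraembryonic set, were not called either. Over 19 tested the median was 0.04, and edgeR's count of calls was 0, with 0 at an unadjusted p under 0.05 and 0 called by DESeq2. Their summed level was 1088 and 1410 CPM in PGCs and 3525 and 3889 CPM in soma, most of it apoeb, an apolipoprotein gene, at 943, 1108, 3303 and 3430 CPM (log2 fold change -1.72 ± 1.13, adjusted p = 0.402). Of the 19 members 12 were above 0 and 5 below it. So of the extraembryonic layers, the enveloping layer sum was higher in PGC libraries. The yolk syncytial layer sum was lower, but it was mostly that of apoeb, which was not called.

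**Figure D4:**
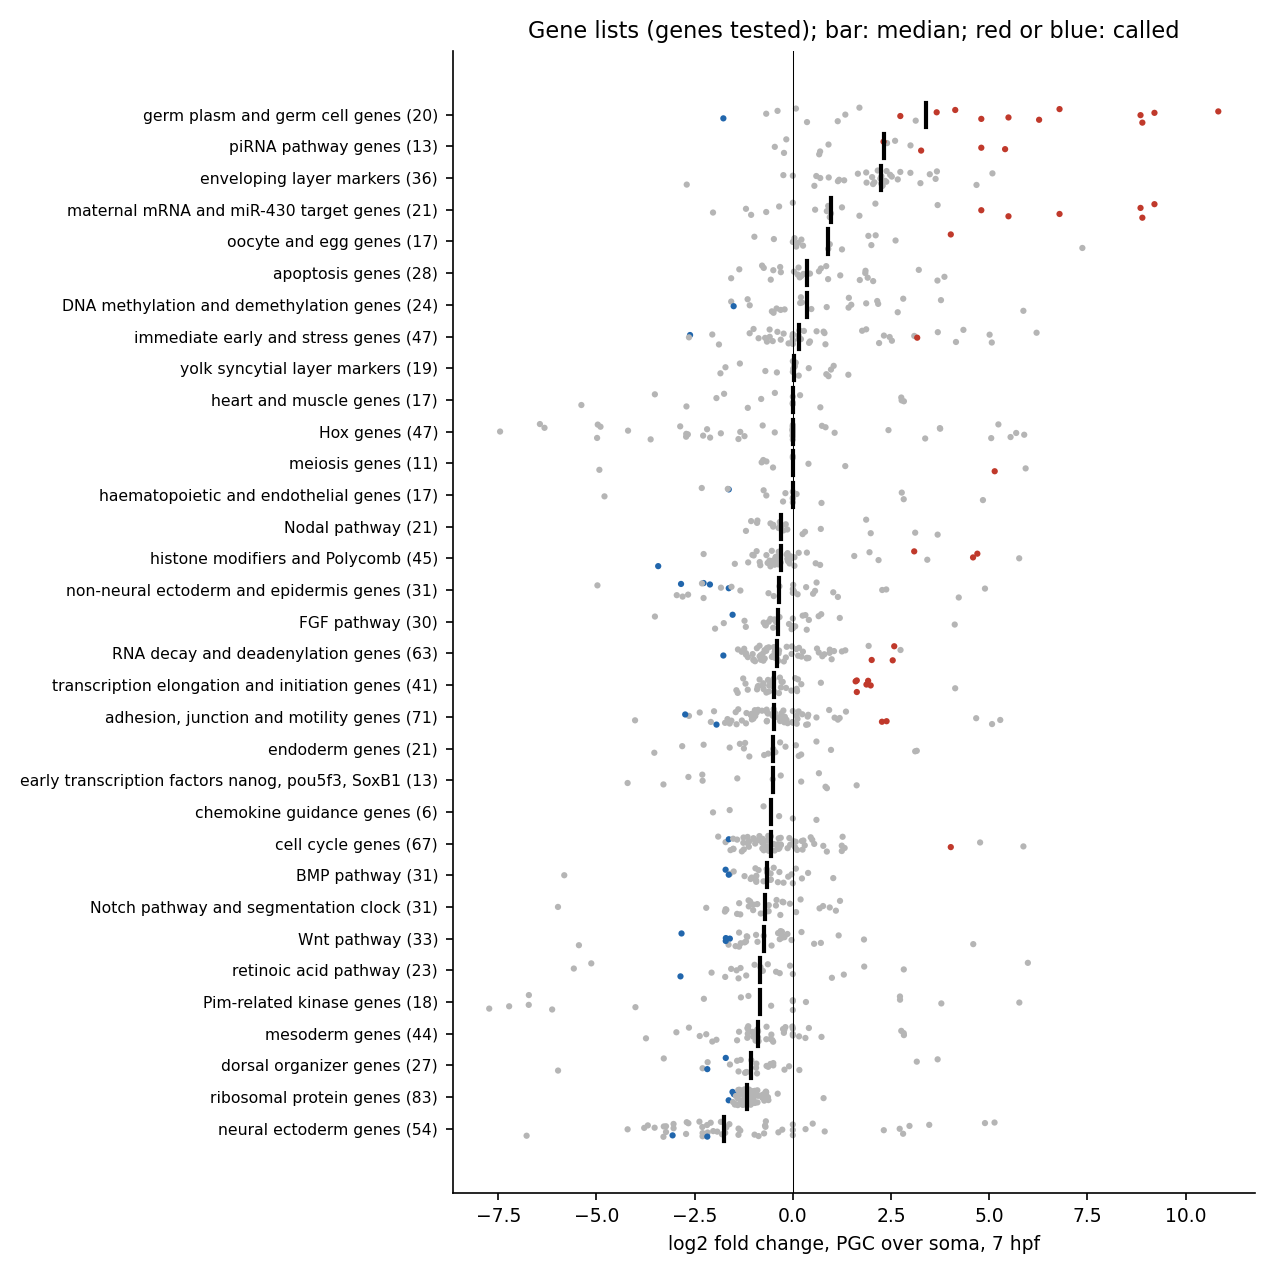
Log2 fold change of PGC over soma at 7 hpf for every tested member of each gene list, in order of the list's median (black bar), with members called higher in red and called lower in blue; numbers in brackets are genes tested. Germ plasm genes have the highest median, 3.39, with 11 red points, and neural ectoderm genes the lowest, -1.76, with 2 blue points; lists far from 0 need not hold calls, as with the enveloping layer.

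The same genes were followed at the other stages, whose libraries are not shared with 7 hpf. Since the genes were chosen on their values at 7 hpf, their levels there are a description. The 648 higher genes had a median of 33.7, 23.4, 17.5 and 23.5 CPM in PGCs at 4, 7, 24 and 36 hpf in turn, and of 24.3, 3.60, 15.0 and 13.4 CPM in soma. Over all genes tested the medians at these stages were 4.72, 5.12, 9.08 and 8.74 CPM in PGCs, and 4.52, 3.92, 8.40 and 8.06 CPM in soma. The PGC median of the higher genes was thus above that of all genes at every stage. Their soma median was below that of all genes at 7 hpf only. At 5 CPM or more in both soma libraries of 4 hpf were 539 of the 648 higher genes (83.2%), against 43.6% of all genes tested. The share was alike for the lower genes, 130 of 167 (77.8%), so it was not particular to the higher ones. The 167 lower genes had a median of 20.8, 25.8, 39.1 and 28.7 CPM in PGCs and 27.0, 97.3, 42.6 and 43.2 CPM in soma. At 7 hpf their level stood out in soma and not in PGCs. The soma values of 24 hpf include the library with the PGC source label, and in the other soma library of 24 hpf the medians were 15.8 CPM for the higher genes and 43.7 CPM for the lower genes.

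**Figure D5:**
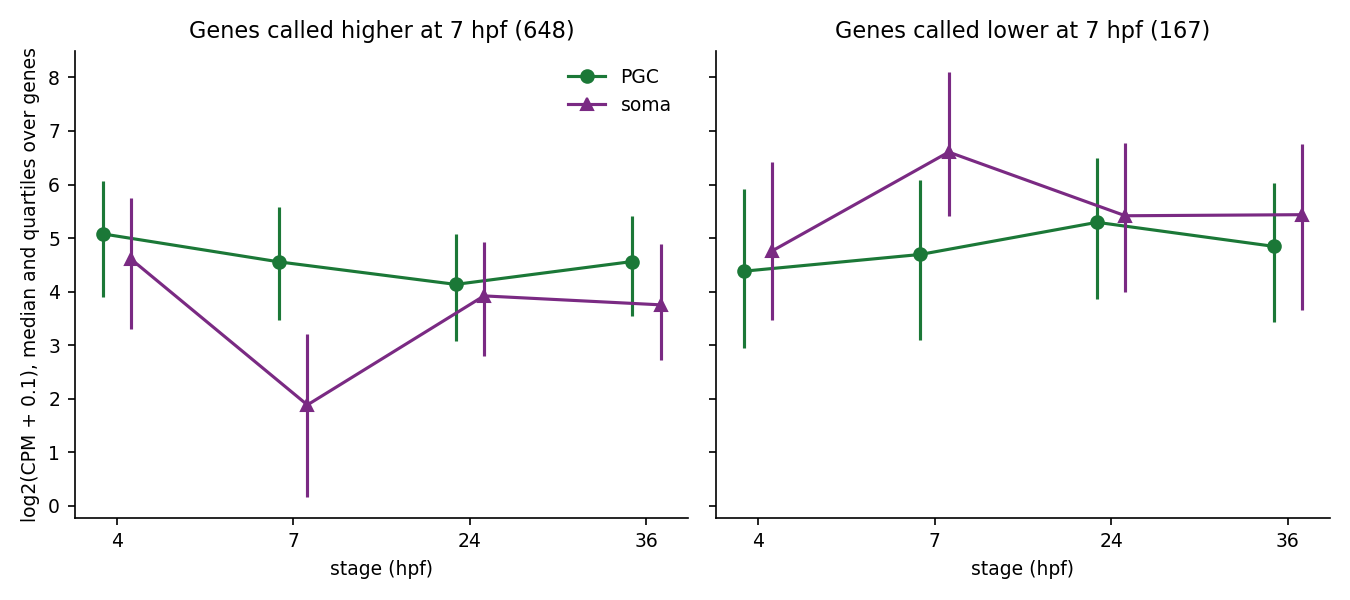
Median level over genes, as log2(CPM + 0.1), with the lower and upper quartile as bars, for the genes called higher (left, 648) and lower (right, 167) at 7 hpf, in PGCs (circles) and soma (triangles) by stage in hpf. The genes were chosen on the 7 hpf values; the soma median at 7 hpf is 3.60 CPM at the left and 97.3 CPM at the right, away from its other stages, while the PGC medians of both panels stay between 17.5 and 39.1 CPM.

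At the other stages most of these genes had the same sign but few were called. Of the 648 higher genes, 506 (78.1%) were above 0 at 4 hpf, 437 (67.4%) at 24 hpf and 493 (76.1%) at 36 hpf, against 44.4%, 54.8% and 50.1% of all genes tested, with medians of 0.34, 0.20 and 0.62. Of the same genes 8, 6 and 28 were called higher at those stages, where 9, 8 and 104 genes (0.0438%, 0.039% and 0.506%) were called in all. Of the 167 lower genes, 135 (80.8%), 115 (68.9%) and 140 (83.8%) were below 0, against 45.0%, 44.2% and 49.5% of all genes, with medians of -0.39, -0.17 and -0.63. None of the 167 was called lower at 4, 24 or 36 hpf, where 0, 0 and 3 genes (0%, 0% and 0.0146%) were called in all. The adducin gene ADD3, named after its values were seen, was called the other way at 36 hpf, with 162, 93, 850 and 590 CPM at 7 hpf (-2.50, adjusted p = 0.0103) and 22.2, 46.5, 4.38 and 7.33 CPM at 36 hpf (2.56, adjusted p = 0.0247).

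The germ plasm genes NANOS3, DND1, ca15b, tdrd7a and DDX4 were called at 4 hpf as well, with log2 fold changes of 6.86, 6.58, 5.55, 5.28 and 4.47 there, and so were si:ch211-241j12.3 (5.58) and TGFA (5.01). The remaining gene called at both stages was the golgin GOLGA3, with 273, 270, 19.8 and 56 CPM at 7 hpf (2.84, adjusted p = 0.00497) and 2.77 at 4 hpf (adjusted p = 0.0409). Values at 4 hpf near 0 were found for other higher genes, such as TSC1 (-0.09), GTF2A1 (-0.10), ELL2 (0.14) and CRY1 (0.30). Of the lower genes, SFRP1 was at -0.78, TFAP2C at -0.37, foxi1 at -0.23 and hmga1a at -0.50 at 4 hpf. Whether the difference itself changed between 4 and 7 hpf was tested as a contrast of contrasts in the same fit. edgeR called 0 of 20536 genes, with a smallest adjusted p of 0.0722. At an unadjusted p under 0.05 there were 2232 genes, and DESeq2 called 352. A change between the stages was therefore not called for any single gene in edgeR's fit, and without soma replicate 1 of 7 hpf that fit called 37.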

How the data were processed

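Per the labels and the study's methods, RNA of sorted cells was made into stranded total RNA libraries (SMARTer pico) and sequenced in pairs of reads. The authors trimmed adapters with Trim Galore, aligned reads to danRer10 with STAR and quantified genes with RSEM. The deposited expected counts are RSEM's raw estimated counts per gene, of which 95.2% are whole numbers. The deposited TPM values, scaled by the authors for length and library, and the deposited effective lengths served only for alternatives and the length check. The tables hold no comparison columns.

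Expected counts were rounded, and 92 spike-in rows, which hold 0 counts, were left out. Of 34289 genes, 20536 passed filterByExpr (at least 10 counts in 2 libraries, scaled by depth, and 15 in all). A factor of 8 groups was fitted over all 16 libraries with TMM scaling (edgeR 4.0.16, glmQLFit and glmQLFTest, limma 3.58.1, R 4.3.3), with Benjamini-Hochberg adjustment over the whole table. Both thresholds follow the study's methods. SE was taken as the log2 fold change over the square root of F. With 3 or fewer counts in each soma library, a fold is given as a bound. Reads carry no molecular identifiers, and the p-values measure the spread between these libraries only. A symbol was paired with 26790 of 34289 identifiers.

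Named genes are members of the gene lists, the 20 highest and 20 lowest log2 fold changes among called genes averaging 5 CPM or more without overlap, and the 10 most abundant called genes in each direction; others are marked as named after their values were seen. The members and lists were chosen with earlier results of these data known. A few genes that these rules select are not reported here. A list of mitochondrial genes paired with no identifier. Alternatives were DESeq2 1.42.0, other scalings, filters, tests and samples, the replicate number as a block, limma on log2(TPM + 1) and log2(TPM + 0.1), and each library of 7 hpf left out, and, chosen after seeing the data, soma replicate 1 of 24 hpf left out.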

Additional observations from a re-analysis of the deposited data

How the results depend on the processing

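Every gene called at 7 hpf kept its direction under all alternatives that tested it, except 1 higher gene with offsets from the effective lengths, but the number of calls moved widely. Against 648 higher and 167 lower genes, DESeq2 called 1327 and 430, library totals alone 1170 and 56, upper-quartile scaling 639 and 270, no filter on low counts 1462 and 395, a stricter filter 1063 and 222, the likelihood ratio test 1446 and 513, and offsets from the effective lengths 593 and 150. With only the 4 libraries of 7 hpf, the quasi-likelihood test called 362 and 144 and the exact test 1129 and 363. Limma on log2(TPM + 1) called 119 and 29, and on log2(TPM + 0.1) 179 and 28. Leaving out a library of 7 hpf gave from 98 to 419 higher and from 16 to 64 lower genes; the lone library left in a group is assumed to vary like the other groups. Without soma replicate 1 of 24 hpf, an alternative chosen after seeing the data, 516 and 112 were called.

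Replicate numbers are shared by the groups. Same-numbered PGC and soma libraries of 7 hpf deviated together with r = 0.0799 over all genes and 0.127 over genes of at least 5 CPM, from 2 pairs. The reported fit treated the samples as unpaired. A few genes without a symbol, given above, were nevertheless higher in replicate 2 of both groups at every stage. What same-numbered libraries share was not tested. A fit with the number as a replicate block called 768 higher and 304 lower, with 594 of the 648 higher and 161 of the 167 lower genes still among them.

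Of the 55 genes named by size, limma called 26 at either pseudocount the fits with a library of 7 hpf left out from 14 to 25, and the fit without soma replicate 1 of 24 hpf 43. The change of the difference between 4 and 7 hpf, 0 genes in the reported fit, was called for 352 by DESeq2, 502 with no filter, 54 with the stricter filter, 395 by the likelihood ratio test, 9 and 7 by limma at pseudocounts of 1 and 0.1, and from 0 to 37 with a library left out. The cause of these shifts was not tested. Of 33 lists, 20 had a median below that of all genes, and from 18 to 24 under the alternatives. Among genes named in the text, tbx16 (0.32) ranged from -0.033 (without soma replicate 2) to 0.79 (without soma replicate 1) and tbxta (-0.50) from -0.89 (without soma replicate 2) to 0.032 (without soma replicate 1), called in none of these.

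With 2 libraries a group, and 3 counts worth from 0.483 to 0.705 CPM, depth limits what can be said of genes below a few CPM.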
